A study of Mus musculus with 4 samples.

Results

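MHC class I genes and the genes that make, transport and load their peptides were followed in hematopoietic stem and progenitor cells (HSPC) of caNIK and control mice. Members were the genes whose symbols name the H2-K, H2-D1, H2-L, H2-Bl, H2-Q, H2-T or H2-M loci, with 14 named genes of peptide processing and loading, 48 of the 24015 symbols in the count tables. The caNIK group (2 libraries) came from mice carrying Rosa-loxp-STOP-loxp-NIK and Vav-iCre, in which a NIK that escapes TRAF3 is made once Cre, driven by Vav in blood-forming cells, has removed the stop. The control group (2 libraries) is labelled only as control, and the labels do not say whether it carries Cre or the unrecombined allele. Strain, MHC haplotype, age, tissue, sort markers and number of animals are also unstated. The p-values below thus reflect the spread within each pair of libraries, which could be technical only.

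A class I molecule is a heavy chain held by the light chain beta-2 microglobulin around a short peptide. Proteasomes cut cytosolic proteins into peptides, the TAP transporter carries these into the endoplasmic reticulum, and a loading complex with tapasin, calreticulin and the disulfide isomerase ERp57 places them in the groove. Classical heavy chains (H2-K, H2-D and, in some strains, H2-L) display peptides to cytotoxic T cells on nearly all nucleated cells. Non-classical ones (H2-Q, H2-T and H2-M) have more restricted roles, among them display to NK cells and to unconventional T cells. NLRC5 is the transactivator of class I promoters, which are also known to hold a kappa-B site and an interferon response element.

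Of the 48 members, 13 had no count in any library and 3 more had too few for the test, which left 32. These 32 were judged in a fit of all 14191 genes that passed the count filter. Of the 32 tested members, 18 were higher in caNIK HSPC and 1 was lower at an adjusted p under 0.05, and the remaining 13 did not pass (edgeR quasi-likelihood test, Benjamini-Hochberg over all genes tested). Over all tested genes, 13.8% were higher and 8.21% were lower by that rule. The median log2 fold change, caNIK over control, was 1.34 over tested members and 0.00 over all tested genes. In 23 of the 32 both caNIK libraries lay above both control libraries in CPM (TMM-normalised counts at a shared library size), which was the case for 33.3% of all tested genes. H2-Q10, H2-Bl and H2-M2 met the count filter through their caNIK libraries alone, which set their place above control beforehand. They are kept in the counts and medians here and below. In such bulk libraries, more transcript per cell and more cells of a type that expresses a gene cannot be told apart. The single lower gene, H2-Ke6, is a member by its symbol only. It lies in the H2-K region and encodes a short-chain dehydrogenase, not a class I molecule.

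**Figure D1:**
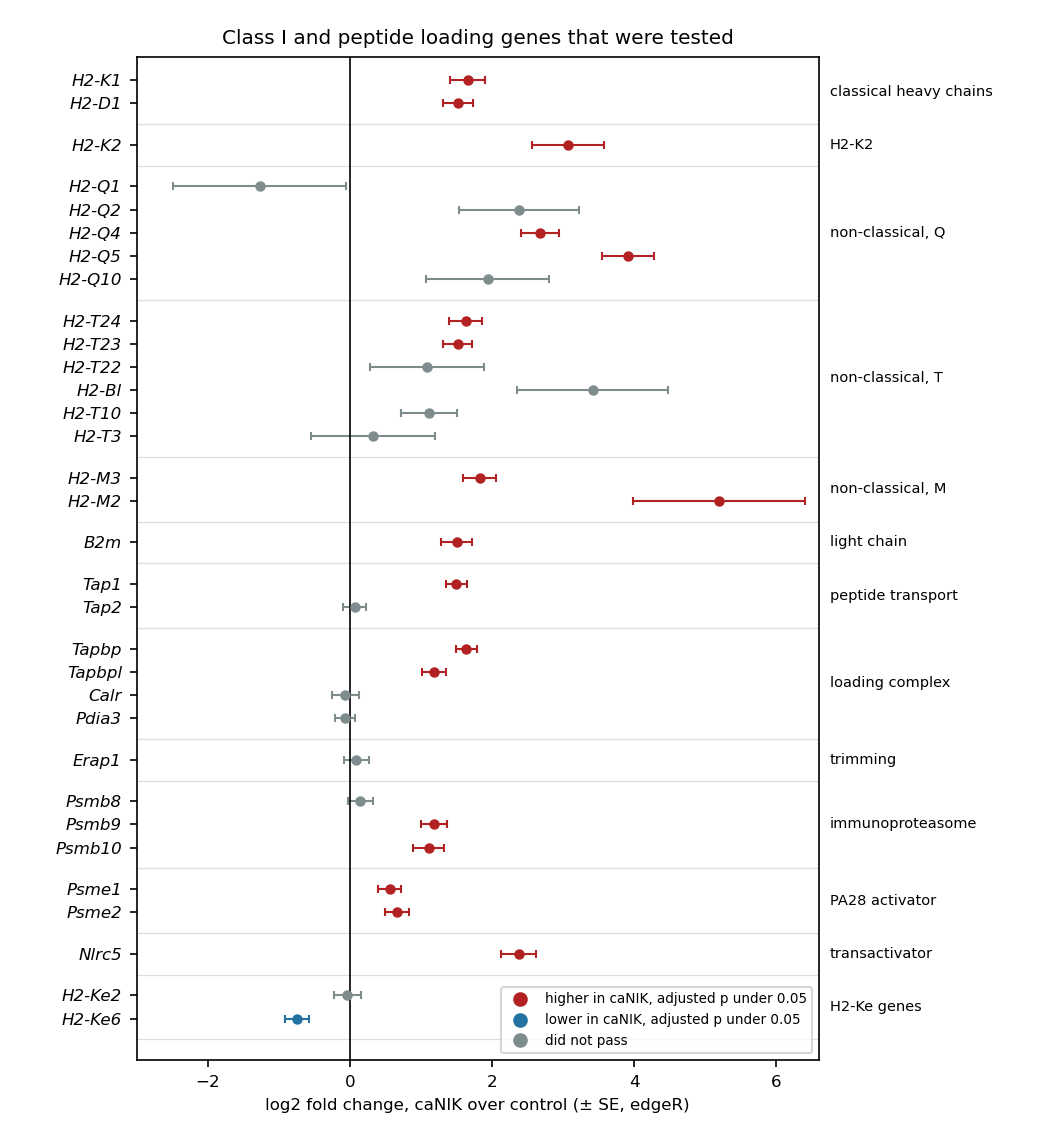
Log2 fold change of caNIK over control for each of the 32 tested members, with points for the edgeR estimate, bars for its standard error and colours for the call. Of the 16 heavy chain genes, 15 sit to the right of 0, as do B2m, Tap1, Tapbp and Nlrc5, and H2-Q1 sits to the left without passing, whereas Tap2, Psmb8, Calr, Pdia3 and Erap1 sit near 0. H2-Q10, H2-Bl and H2-M2 met the count filter through their caNIK libraries alone.

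The sequences before the start of members whose level the results turn on are shown to let the class I control region be read beside the values. RefSeq promoter windows of build GRCm38.p6 were matched by symbol for 34 of the 48 members and 22 of the 32 tested ones. Each line gives the 200 bases before the annotated gene start, 5′ to 3′ along the gene. Capitals mark matches, on either strand, to a kappa-B motif (GGG, any 2 bases, TT, any base, CC) or an interferon response element (AANNGAAAC). These came from chr17:34000348-34000547 (minus strand), chr17:35262894-35263093 (plus), chr17:35379417-35379616 (plus), chr17:37270034-37270233 (plus), chr2:122147487-122147686 (plus), chr17:36032702-36032901 (minus), chr17:34187356-34187555 (plus) and chr17:34197995-34198194 (plus).
H2-K1: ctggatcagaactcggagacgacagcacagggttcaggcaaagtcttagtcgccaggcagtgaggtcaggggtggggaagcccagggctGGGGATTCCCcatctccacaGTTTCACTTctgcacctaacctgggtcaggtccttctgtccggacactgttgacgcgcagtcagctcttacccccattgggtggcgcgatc
H2-D1: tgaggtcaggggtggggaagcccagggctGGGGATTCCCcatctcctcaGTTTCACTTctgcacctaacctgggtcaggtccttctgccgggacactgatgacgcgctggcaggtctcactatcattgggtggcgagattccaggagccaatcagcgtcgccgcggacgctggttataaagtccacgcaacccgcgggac
H2-Q4: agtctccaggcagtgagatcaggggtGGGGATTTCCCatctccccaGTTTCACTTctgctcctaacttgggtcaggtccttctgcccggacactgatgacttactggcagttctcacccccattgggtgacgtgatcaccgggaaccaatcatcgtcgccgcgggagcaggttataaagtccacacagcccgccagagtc
H2-M3: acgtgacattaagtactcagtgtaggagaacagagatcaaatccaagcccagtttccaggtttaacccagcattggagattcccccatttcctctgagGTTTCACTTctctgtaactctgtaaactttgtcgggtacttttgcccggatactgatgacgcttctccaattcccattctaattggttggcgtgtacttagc
B2m: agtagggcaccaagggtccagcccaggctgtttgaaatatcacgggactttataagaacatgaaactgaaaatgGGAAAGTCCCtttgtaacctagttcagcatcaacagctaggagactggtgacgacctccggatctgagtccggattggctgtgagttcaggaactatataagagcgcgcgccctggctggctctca
H2-T23: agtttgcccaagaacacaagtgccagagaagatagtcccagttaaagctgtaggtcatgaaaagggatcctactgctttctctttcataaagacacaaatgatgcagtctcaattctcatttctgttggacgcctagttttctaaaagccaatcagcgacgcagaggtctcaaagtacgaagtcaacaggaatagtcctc
Tap1: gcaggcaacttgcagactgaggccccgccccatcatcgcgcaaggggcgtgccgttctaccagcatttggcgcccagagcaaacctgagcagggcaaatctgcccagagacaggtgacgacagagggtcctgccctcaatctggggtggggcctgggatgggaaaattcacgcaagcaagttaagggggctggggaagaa
Psmb8: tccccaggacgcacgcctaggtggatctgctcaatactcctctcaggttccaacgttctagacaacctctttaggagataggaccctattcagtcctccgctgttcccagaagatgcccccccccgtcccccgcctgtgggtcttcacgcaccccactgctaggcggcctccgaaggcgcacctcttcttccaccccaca

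In H2-K1 and H2-D1, the classical heavy chain genes, a kappa-B match was followed after 10 bases by an interferon response element on the other strand. H2-Q4, a Q-region gene, had the same order with 9 bases between, and its kappa-B capitals cover 2 overlapping matches. H2-M3 had an interferon response element without a kappa-B match, and B2m a kappa-B match on the minus strand. In the windows of H2-T23, Tap1 and Psmb8 neither set of letters was found. Over the 250 bases before the start, a kappa-B match was present in 4 of 13 members that were higher and had a window, in 0 of 9 tested members that were not higher, and in 4.11% of all 32851 windows. An interferon response element was present in 5 of the 13, in 4 of the 9 and in 4.95% of all windows. The Y box letters CCAAT, not capitalised here, overlapped an interferon response element in H2-Ke6 and were present in 10 of the 13, 5 of the 9 and 33.8% of all windows. A match is a run of letters, not a shown binding site. The matched stretches of H2-K1, H2-D1 and H2-Q4 are nearly the same in letters, so their matches are not independent counts. H2-K2, H2-Q5, H2-T24, Tapbpl and Nlrc5 were higher but had no window. A link between matches and calls was not tested. H2-Q6 and H2-Q7 also had the paired arrangement but had no count in any library, and how reads of similar genes were counted is unstated.

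**Figure D2:**
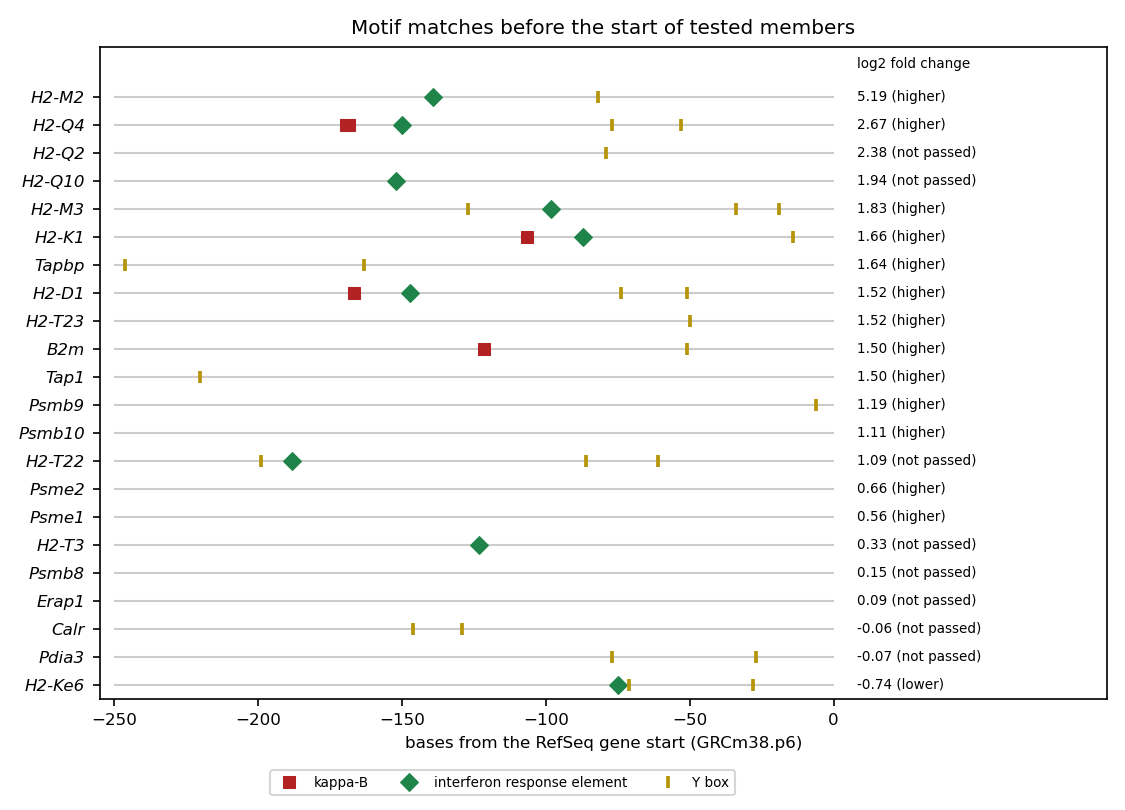
Motif matches in the 250 bases before the RefSeq gene start of the 22 tested members with a window, with distance from the start on the x axis and genes ordered by log2 fold change. Kappa-B matches (squares) are seen in H2-Q4, H2-K1, H2-D1 and B2m, which are 4 of the 13 members shown that were higher in caNIK. The stretches of H2-Q4, H2-K1 and H2-D1 are nearly the same in letters, and a link between matches and calls was not tested.

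Both counted classical heavy chain genes were higher in caNIK HSPC. H2-K1 stood at 1884 and 1358 CPM in caNIK replicates 1 and 2, against 609.6 and 417 CPM in control replicates 1 and 2. Both caNIK libraries were above both control libraries, and the log2 fold change was 1.66 with an SE of 0.24 (edgeR adjusted p = 0.0049; values after ± below are SEs). H2-D1 stood at 336 and 271 CPM in caNIK, against 124 and 87.8 CPM in control (1.52 ± 0.21; edgeR adjusted p = 0.0042). The ratio of H2-K1 to H2-D1 counts was 5.61 and 5.02 in the caNIK libraries and 4.93 and 4.75 in the control libraries. H2-L, the remaining classical gene, was listed at 0 in all libraries. GENCODE M21 holds no H2-L, H2-Q8, H2-Q9 or H2-T9 by symbol, so their 0 counts may not be measured levels. H2-K2, a class I-like gene beside H2-K1, had 18.6 and 9.02 CPM in caNIK and 2.02 and 1.28 CPM in control (3.06 ± 0.51; edgeR adjusted p = 0.0077).

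B2m, the light chain that every class I molecule needs, stood at 1741 and 1459 CPM in caNIK, against 669 and 461 CPM in control. Its log2 fold change of 1.50 ± 0.21 (edgeR adjusted p = 0.0044) lay within 1 SE of those of H2-K1 and H2-D1. Counts of H2-K1 and H2-D1 together were 1.28 and 1.12 times those of B2m in the caNIK libraries, and 1.10 times in each control library.

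Non-classical genes ranged more widely, and H2-Q4 and H2-Q5 of the Q region had larger fold changes than the classical genes. Of 28 non-classical members, 12 had no count in any library and 13 were tested. Of these 13, 6 were higher and 0 lower, against 13.8% and 8.21% of all tested genes. H2-Q4 stood at 537 and 357 CPM in caNIK, against 81.9 and 58.2 CPM in control (2.67 ± 0.26; edgeR adjusted p = 0.0011). H2-Q5 stood at 212 and 117 CPM in caNIK, against 13.4 and 8.44 CPM in control (3.92 ± 0.37; edgeR adjusted p = 0.00089). That is a 15.1-fold difference, against 3.16-fold for H2-K1. H2-Q2 also lay higher in both caNIK libraries, with 107 and 86 counts against 32 and 6 in control, but did not pass (2.38 ± 0.84; edgeR adjusted p = 0.092). H2-Q10, known as a liver-secreted class I protein, had 21 and 11 counts in caNIK and 4 and 5 in control. H2-Q1 had 10 and 11 counts in caNIK and 48 and 3 in control, so that the groups overlapped. H2-Q6, H2-Q7, H2-Q8 and H2-Q9 were listed at 0 in all libraries.

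In the T region the 2 best-counted genes changed by about as much as the classical ones. H2-T23 (Qa-1), which shows leader peptides of other class I chains to the NKG2A receptor, stood at 199.8 and 142 CPM in caNIK, against 64.6 and 54.8 CPM in control (1.52 ± 0.21; edgeR adjusted p = 0.0040). H2-T24 stood at 27.4 and 29.8 CPM in caNIK and at 9.28 and 9.25 CPM in control (1.63 ± 0.23; edgeR adjusted p = 0.0040). H2-T10 and H2-T22, similar genes known as ligands of gamma-delta T cells, lay higher in both caNIK libraries without passing, at 1.11 ± 0.40 and 1.09 ± 0.80. H2-T3, the thymus leukemia antigen, did not separate the groups, with 33 and 24 counts in caNIK and 38 and 9 in control. H2-Bl had 11 counts in each caNIK library and 1 in each control library, an 11.9-fold difference (95% counting interval 2.94 to 104.8), and did not pass (edgeR adjusted p = 0.064). H2-T9 was listed at 0.

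In the M region H2-M3, which presents N-formylated peptides, stood at 38.4 and 30.6 CPM in caNIK, against 10.2 and 9.25 CPM in control (1.83 ± 0.23; edgeR adjusted p = 0.0029). H2-M2 had 89 and 16 counts in caNIK, against 1 and 2 in control, a 38.0-fold difference (95% counting interval 12.7 to 187). It passed (edgeR adjusted p = 0.025) but not with limma-voom, nor without caNIK replicate 1, where its log2 fold change was 3.37. The other 10 M genes had no count in any library (7 genes) or between 1 and 13 over all 4 libraries. Of those, H2-M5 had 10 and 1 counts in caNIK and 1 in each control library, H2-M10.2 had 1 and 2 in caNIK and 0 in both control libraries, and H2-M10.3 had 1 in all.

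**Figure D3:**
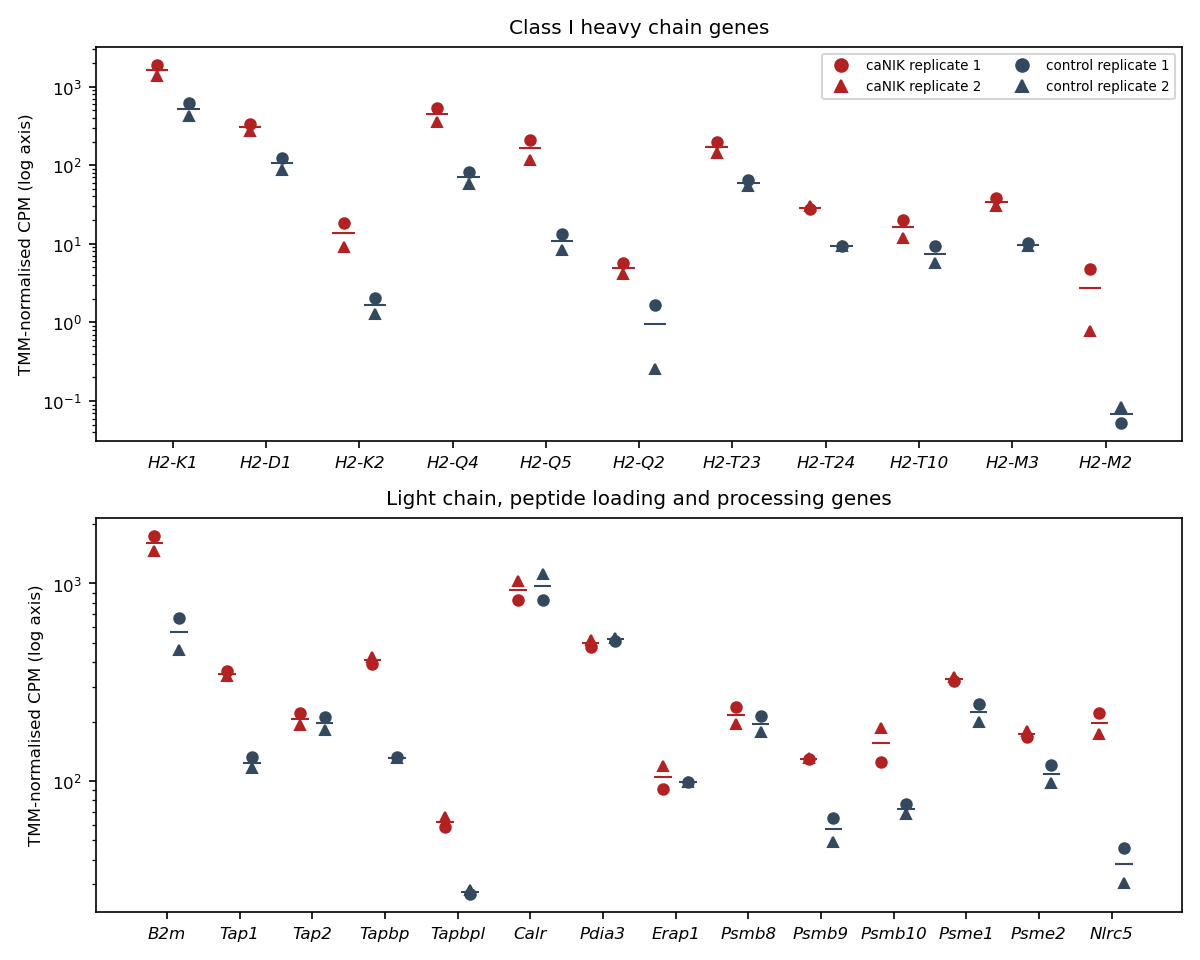
TMM-normalised CPM on a log axis in each library, with circles for replicate 1, triangles for replicate 2 and bars for group means, caNIK left of control for each gene. Counts are not scaled by gene length, so only values within a gene can be compared. H2-K1, H2-D1, H2-Q4, H2-Q5, B2m, Tap1, Tapbp and Nlrc5 show no overlap, and Tap2, Psmb8, Calr, Pdia3 and Erap1 do.

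The share of heavy chain counts held by Q genes was higher in both caNIK libraries. Non-classical genes held 32.1% and 30.0% of all heavy chain counts in the caNIK libraries, against 21.1% and 22.5% in the control libraries (H2-K2 not counted). The Q genes held 23.1% and 20.6% in caNIK, against 10.7% and 10.3% in control. The T genes went the other way, with 7.70% and 8.01% in caNIK and 9.30% and 10.8% in control. The groups did not overlap in any of these shares, and the two-sided exact permutation p was 0.33 for each, the smallest that 2 against 2 libraries can give. As shares of counts these values do not depend on scaling between libraries, but they do depend on how reads of similar genes were assigned.

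Similarity between genes limits the single heavy chain values. Of the distinct runs of 50 bases in GENCODE M21 transcripts, 36.4% of those of H2-Q5 also occur in another gene, 21.8% of those of H2-Q4 and 32.9% of those of H2-T10. The share was 9.63% for H2-K1, 12.8% for H2-D1, 0.576% for H2-M3 and 0.00% for B2m. H2-Q5 shares 25.5% of its runs with H2-Q7, which had no count in any library. Whether reads of one were counted for the other was not tested. Read length, strand use and the handling of multiply matching reads are unstated, so values of single Q and T genes are uncertain. Exons of 13 members overlap those of another annotated gene, most often an antisense one, Nlrc5, H2-Q4, Tapbp and Erap1 among them. Among the 20 tested members with under 10% shared, 13 were higher and 0 lower (13.8% and 8.21% over all tested genes), with a median of 1.34.

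Of the TAP transporter genes, Tap1 rose and Tap2 did not pass. Tap1 stood at 361 and 338 CPM in caNIK, against 131 and 116 CPM in control (1.50 ± 0.15; edgeR adjusted p = 0.0011). Tap2, whose product pairs with that of Tap1 to form the channel, stood at 222 and 191 CPM in caNIK and at 212 and 182 CPM in control. Its log2 fold change was 0.07 ± 0.16, with a 95% interval of -0.31 to 0.45 (edgeR adjusted p = 0.80), so that the groups overlapped. The ratio of Tap1 to Tap2 counts was 1.63 and 1.77 in the caNIK libraries, against 0.621 and 0.640 in the control libraries, with no overlap (two-sided exact permutation p = 0.33, the smallest possible).

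Of the catalytic subunits that turn a proteasome into an immunoproteasome, Psmb9 and Psmb10 rose and Psmb8 did not pass. Psmb9, which neighbours Tap1, stood at 129 and 131 CPM in caNIK, against 65.1 and 49.0 CPM in control (1.19 ± 0.18; edgeR adjusted p = 0.0059). Psmb10, on another chromosome, stood at 125 and 186 CPM in caNIK, against 76.5 and 67.7 CPM in control (1.11 ± 0.22; edgeR adjusted p = 0.014). Psmb8 stood at 238 and 194 CPM in caNIK and at 213 and 177 CPM in control, with overlap between the groups (0.15 ± 0.17, 95% interval -0.27 to 0.56; edgeR adjusted p = 0.60). On chromosome 17 the order is Psmb9, Tap1, Psmb8, Tap2, and the first 2 of these, which start 225 bases apart on opposite strands, were the ones that rose. Exons of Psmb9 and Tap1 overlap in GENCODE M21, as do those of Psmb8 and Tap2 with antisense transcripts, so without strand information some of their reads cannot be told apart.

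Set against the constitutive subunits that they replace, Psmb9 and Psmb10 lay higher in both caNIK libraries and Psmb8 did not separate the groups. The ratio of Psmb9 to Psmb6 counts was 0.780 and 0.569 in caNIK, against 0.533 and 0.363 in control. The ratio of Psmb10 to Psmb7 was 0.774 and 0.895 in caNIK, against 0.523 and 0.462 in control. The ratio of Psmb8 to Psmb5 was 2.83 and 1.99 in caNIK, against 2.68 and 1.99 in control. Neither of the first 2 ratios overlapped between groups (two-sided exact permutation p = 0.33 each). Psmb8, Psmb9 and Psmb10 summed over Psmb5, Psmb6 and Psmb7 gave 1.20 and 0.954 in caNIK and 1.02 and 0.793 in control, which overlapped (exact permutation p = 0.67).

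**Figure D4:**
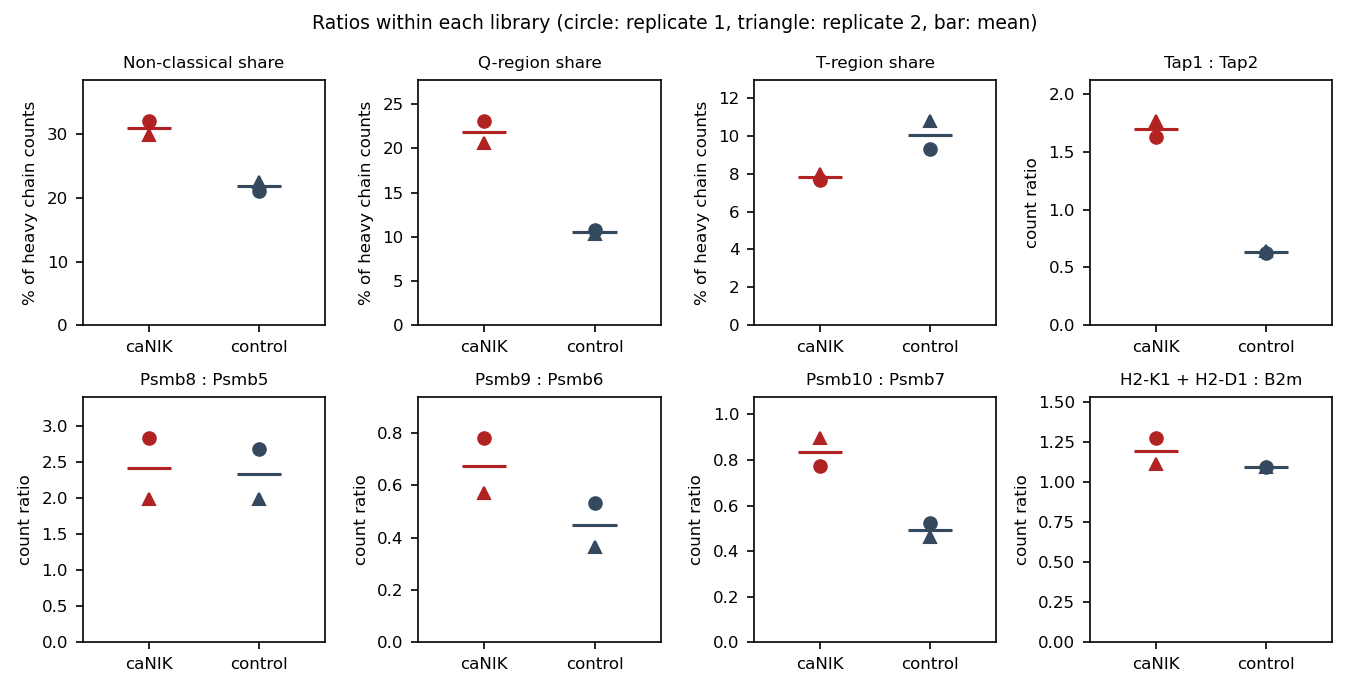
Ratios and shares within each library, each panel with caNIK left of control, circles for replicate 1, triangles for replicate 2 and bars for means, on axes that start at 0. Q-region share, Tap1 to Tap2, Psmb9 to Psmb6 and Psmb10 to Psmb7 lie above control in both caNIK libraries, and Psmb8 to Psmb5 overlaps.

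Psme1 and Psme2, the subunits of the PA28 cap that opens the proteasome, passed with small changes of 0.56 ± 0.16 and 0.66 ± 0.17 (edgeR adjusted p = 0.049 and 0.032). Psme1 stood at 322 and 336 CPM in caNIK, against 247 and 199.1 CPM in control. Psme2 stood at 166 and 179 CPM in caNIK, against 121 and 97.4 CPM in control. Both calls were lost when either control library or caNIK replicate 2 was left out. That of Psme1 was also lost without caNIK replicate 1, with library totals or upper-quartile scaling, and with a stricter count filter. Psme2 shares 28.3% of its 50-base runs with Psme2b.

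Tapbp and Tapbpl, dedicated to class I loading, rose, and the general chaperones of the loading complex did not pass. Tapbp, tapasin, which bridges TAP and the empty heavy chain, stood at 392 and 427 CPM in caNIK, against 132 and 130.2 CPM in control (1.64 ± 0.14; edgeR adjusted p = 0.00071). Tapbpl, TAPBPR, a related peptide editor outside the complex, stood at 58.2 and 66.0 CPM in caNIK, against 26.6 and 28.0 CPM in control (1.19 ± 0.17; edgeR adjusted p = 0.0042). Calr, calreticulin, stood at 829 and 1032 CPM in caNIK and at 829 and 1111 CPM in control. Pdia3, which encodes ERp57, stood at 479 and 518 CPM in caNIK and at 513 and 532 CPM in control. The 95% intervals of their log2 fold changes were -0.53 to 0.41 and -0.39 to 0.26. Erap1, the aminopeptidase that trims peptides in the endoplasmic reticulum, stood at 90.8 and 119.5 CPM in caNIK and at 99.1 and 98.5 CPM in control (95% interval -0.34 to 0.51).

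Nlrc5, the class I transactivator, had the largest change of the 14 processing and loading genes. It stood at 222 and 173 CPM in caNIK, against 45.6 and 30.5 CPM in control, with no overlap (2.38 ± 0.24; edgeR adjusted p = 0.0012). Of the 14, 9 were higher and 0 lower (13.8% and 8.21% over all tested genes), and the median log2 fold change was 0.88. The 16 tested heavy chain genes had 9 higher and 0 lower with a median of 1.74. These medians are descriptions, and the difference between them was not tested.

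Of 18 tested regulators of class I, a list that also holds Ciita, 7 passed as higher, 1 passed as lower and 10 did not pass. Their median log2 fold change was 0.24. Over all tested genes, 13.8% were higher and 8.21% lower. Irf1, which binds interferon response elements, stood at 228 and 240.0 CPM in caNIK, against 93.3 and 67.1 CPM in control (1.54 ± 0.19; edgeR adjusted p = 0.0027). Rfx5, part of the RFX complex that NLRC5 works through, changed by 0.64 ± 0.15 (edgeR adjusted p = 0.027), whereas its partners Rfxap and Rfxank and the Y box binding genes Nfya, Nfyb and Nfyc did not pass. Ifnar2, a chain of the type I interferon receptor, was the lower gene (-0.62 ± 0.16), and Ifngr2, of the interferon gamma receptor, was higher (0.96 ± 0.22). Ciita, the class II counterpart of Nlrc5, stood at 332 and 228 CPM in caNIK, against 0.519 and 1.49 CPM in control (8.07 ± 0.45; edgeR adjusted p = 0.00020).

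Class II genes are set beside class I here because the same libraries differed in both. Counts of H2-Aa, H2-Ab1 and H2-Eb1 together were 0.991 and 1.13 times those of the class I heavy chains in the caNIK libraries, against 0.0271 and 0.0625 times in the control libraries (two-sided exact permutation p = 0.33, the smallest possible).

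Genes of general protein turnover and folding mostly did not pass, which also held for all tested genes (13.8% higher, 8.21% lower). Of 17 constitutive proteasome genes, 1 was higher, Psme4, a proteasome activator (0.57 ± 0.15; edgeR adjusted p = 0.041), 0 were lower and the median was 0.32. All 17 had a log2 fold change above 0. In 10 of the 17 both caNIK libraries lay above both control libraries, against 33.3% of all tested genes. Psma6 and Psma2, structural subunits, had 0.63 ± 0.18 and 0.65 ± 0.19 and did not pass (edgeR adjusted p = 0.05004 and 0.052). These changes were similar in size to those of Psme1 and Psme2. Of 15 other folding and loading factors, 1 was higher, the cytosolic aminopeptidase gene Npepps (1.03 ± 0.17; edgeR adjusted p = 0.0072), and 0 were lower. Canx, calnexin, which holds new heavy chains, stood at 563 and 691 CPM in caNIK and 671 and 741 CPM in control and did not pass (95% interval -0.55 to 0.21).

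Class I-like genes outside the H2 loci mostly did not pass, as was true of all tested genes (13.8% higher, 8.21% lower). Of 7 tested, 1 was higher, near the share over all tested genes, and 0 were lower. That gene was Mill2, with 79 and 103 counts in caNIK and 2 and 18 in control (edgeR adjusted p = 0.033). Their median log2 fold change was -0.59. Cd1d1, which presents lipids to NKT cells, had 22.2 and 8.87 CPM in caNIK and 24.4 and 23.9 CPM in control and did not pass (95% interval -1.63 to 0.35). Fcgrt, the neonatal Fc receptor, and Mr1, which presents vitamin B metabolites, had -1.07 ± 0.34 and -0.58 ± 0.33 and did not pass. Of 8 counted symbols of NKG2D ligands, 5 were listed at 0 and the 2 tested, H60b and Raet1a, did not pass.

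Genes listed as receptors of class I, or as relatives of such receptors, were counted at low levels. Of 10 tested, 5 were higher and 0 lower, against 13.8% higher and 8.21% lower over all tested genes. Pirb, an inhibitory receptor for class I on myeloid and B cells, stood at 34.7 and 34.0 CPM in caNIK, against 3.22 and 3.24 CPM in control (3.41 ± 0.24; edgeR adjusted p = 0.00037). Lilrb4, listed by its family and not shown here to read class I, stood at 53.5 and 31.7 CPM in caNIK, against 1.09 and 0.256 CPM in control. Klra2, of the Ly49 family, had 18 and 47 counts in caNIK, and 3 in the control libraries together.

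H2-Ke2 and H2-Ke6, which the rule takes in by symbol, encode a prefoldin subunit and a dehydrogenase. H2-Ke2 stood at 59.2 and 74.5 CPM in caNIK and at 61.8 and 75.2 CPM in control and did not pass. H2-Ke6 fell to 30.0 and 27.2 CPM in caNIK, against 50.1 and 45.8 CPM in control (-0.74 ± 0.17; edgeR adjusted p = 0.025). Its call was lost without either control library and without caNIK replicate 2. H2-Ke6 shares 70.5% of its 50-base runs with Gm20427, which overlaps it on the same strand. Without H2-Ke2 and H2-Ke6 the count was 18 higher and 0 lower of 30 tested (13.8% and 8.21% over all tested genes).

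Libraries totalled 18574452 and 21825077 counts in caNIK and 18656529 and 23162766 in control. Map3k14, the gene of NIK, stood at 177 and 192 CPM in caNIK, against 30.2 and 25.1 CPM in control. Of 9 HSPC markers all were counted in every library, with Kit at 558 and 506 CPM in caNIK and 610.3 and 612.9 CPM in control, whereas 4 of the 9 were lower in caNIK, Cd34 among them (-2.66 ± 0.28), and 1 was higher, Ly6a (Sca-1), with 99.7 and 46.5 CPM in caNIK and 16.8 and 8.14 CPM in control (2.56 ± 0.46; edgeR adjusted p = 0.011). Summed NK cell markers (2 of 4 higher) stood at 41.8 and 9.06 CPM in caNIK and 2.54 and 2.05 CPM in control, with Klrb1c at 0 in control replicate 1 and Ncr1 at 0 in control replicate 2. Dendritic cell markers (3 of 5 tested higher) summed to 70.4 and 52.5 CPM in caNIK, against 12.9 and 17.3 CPM in control, with Cd209a at 0 in both caNIK libraries. Erythroid markers (3 of 6 higher) summed to 1211 and 1889 CPM in caNIK, against 277 and 561 CPM in control. Macrophage and monocyte markers (0 of 8 higher) summed to 124 and 157 CPM in caNIK, against 56.3 and 112 CPM in control. T cell markers (0 of 5 higher) summed to 102 and 41.0 CPM in caNIK and 61.0 and 25.9 CPM in control, and B cell markers (0 of 5 higher, 1 lower) to 68.1 and 46.0 CPM in caNIK and 65.3 and 47.4 CPM in control. Endothelial markers (0 of 4 higher) summed to 80.2 and 47.9 CPM in caNIK and 103 and 105.2 CPM in control. Marker counts stand beside 13.8% higher and 8.21% lower over all tested genes. The part of these markers in the class I values was not tested.

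Replicates differed in the heavy chains in the same direction in both groups. In 13 of the 16 tested heavy chain genes replicate 1 lay above replicate 2 in caNIK and in control, by a median factor of 1.46 in caNIK and 1.43 in control. The matching share over all tested genes was not computed. Of the 14 processing and loading genes, 11 were higher in replicate 1 in control but only 5 in caNIK. Those 5, with B2m and Nlrc5 among them, were higher in replicate 1 in both groups, and 3 of 14 were lower in both. Summed HSPC, T cell, B cell and NK cell markers also lay higher in replicate 1 in both groups. Erythroid markers and those of macrophages and monocytes lay lower in replicate 1 in both. Dendritic cell and endothelial markers lay higher in replicate 1 in caNIK only. Leaving out caNIK replicate 1 gave log2 fold changes of 1.41 for H2-K1, 2.35 for H2-Q4, 1.37 for B2m and 1.25 for H2-T23. That fit has a single caNIK library, which is assumed to vary like the control pair. Its p-values thus say nothing of the spread between caNIK libraries and are not given in this paragraph. The part of any marker list in the replicate order was not tested.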

How the data were processed

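For every library the authors deposited raw counts by gene symbol, per the file headers, and the values are whole numbers without normalization. Build mm9 and the tools DESeq2 1.10.1, featureCounts 1.5.0, TopHat2 2.1.0 and FastQC are listed in the submitters' processing notes without their roles. A haplotype unlike the build's could lower the counts of class I genes. The coordinates and sequences given are of GRCm38.p6 (RefSeq), since no mm9 genome was used here.

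The model was fitted with edgeR 4.0.16 in R 4.3.3 (filterByExpr, TMM, glmQLFit, two-sided glmQLFTest, group as the only term), on all 24015 symbols, of which 14191 were tested. Standard errors (SE) come from the F statistic and 95% intervals from its degrees of freedom. Library ratios were compared by exact permutation. Counting intervals are exact binomial and cover counting error only; at 3 counts, the floor lies between 0.128 and 0.161 CPM.

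Members and lists were chosen with earlier results of these data known. All members are accounted for; from each pathway list the 3 tested genes with the smallest p were named, with Psmb5, Psmb6, Psmb7, Irf1, Rfx5, Canx, Cd1d1 and Map3k14; 1 gene that this takes in is not reported here. Other genes, the class II genes among them, were chosen after their values were seen. Alternatives were DESeq2 1.42.0, limma 3.58.1 voom, other scalings and filters, the replicate block and each library left out.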

Additional observations from a re-analysis of the deposited data

How the results depend on the processing

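Of the 19 members called, 15 passed in every one of the 12 planned settings that tested them, and all 19 kept their sign. The others were Psme1, Psme2, H2-Ke6 and H2-M2. Members that were higher numbered 16 to 20 over the planned settings, against 18, and members that were lower 0 to 1 with 1 library left out. H2-Q2 and H2-T10 passed with DESeq2 and in some other settings. The median log2 fold change lay between 1.24 and 1.63 with 1 library left out. With a library left out, the lone library of its group is assumed to vary like the other pair. Calls kept or lost in those fits, also where named above, thus say nothing of the spread within that group. Over the settings the median of all genes moved by less than 0.1.

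With the replicate block, 20 members were higher and 1 lower, and over all genes 2494 were higher and 1766 lower, against 1964 and 1165 without it. The numbers are not stated to pair the libraries; deviations of replicate 1 from its group mean correlated between the groups (r = 0.27 across 14191 genes, which are not independent replicates).

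Among the 20 tested members with under 10% of 50-base runs shared, a setting chosen after seeing the data, 13 were higher and 0 lower. Shares over all tested genes were 13.8% and 8.21%. The caNIK to control ratio of the non-classical share was 1.42 from summed counts, and that of non-classical to classical levels 1.28 from geometric means, in which weakly counted genes weigh as much as strong ones.

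Genes that did not pass changed sign when a library was left out: Erap1 (-0.14 to 0.28), H2-Ke2 (-0.23 to 0.12), Psmb8 (-0.0048 to 0.27), Tap2 (-0.036 to 0.16), H2-Q1 (-2.21 to 1.99), H2-T3 (-0.43 to 1.89) and Calr (-0.27 to 0.17). With 2 libraries a group, the exact permutation tests cannot go below 0.33.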
